A study of Homo sapiens with 6 samples.

Results

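The bone morphogenetic protein (BMP) ligands BMP2, BMP4 and BMP7, the receptors BMPR1A and BMPR2, the inhibitory SMADs SMAD6 and SMAD7, and the targets ID1, ID2 and ID3 were followed in the RNA of HEK293 cells with and without the mitochondrial E3 ubiquitin ligase MUL1. HEK293 is an established line derived from human embryonic kidney. These 10 genes were chosen by name from the 57885 genes of the count tables, with their difference between the genotypes already known, so their own differences are a description: which of them passed the thresholds of the fit across all genes is counted, but no p-value is given for them and nothing is supported with these counts. RNA was sequenced from 3 libraries of wild type cells (WT) and 3 libraries labelled MUL1(−/−), a derivative in which MUL1 had been inactivated with CRISPR-Cas9. The study describes the sequencing as a profile of protein-coding mRNA. All 6 were from cells grown untreated in DMEM with fetal calf serum, glutamine, penicillin and streptomycin. The study blotted more than 1 clone of each genotype, but the sources used here do not say which clone or clones were sequenced. No label says that the 3 samples of a genotype came from separate cultures, so the p-values given for other genes measure only the spread between these samples, which may be technical.

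BMP ligands are secreted dimers that bring type I and type II receptor kinases together at the cell surface. The activated type I receptor phosphorylates SMAD1, SMAD5 and SMAD9, which join SMAD4 in the nucleus and switch on target genes. ID1, ID2 and ID3, classical targets, encode helix-loop-helix proteins without a DNA-binding region that hold E proteins away from DNA, whereas SMAD6 and SMAD7 are both targets and brakes of the pathway, and in the developing kidney BMP7 and BMP4 are known for their parts in nephron formation and ureter branching.

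The tables held counts per exon bin, summed here to counts per gene, with totals of 139040422 to 156245451 in WT libraries and 133474497 to 134286388 in the libraries labelled MUL1(−/−). Levels are given as CPM, a gene's counts scaled to the TMM-adjusted sum of its library, so that 1 count was worth 0.00648 to 0.00745 CPM. MUL1 (ENSG00000090432; chromosome 1, 20499448 to 20508161) itself had 14.0, 13.9 and 17.4 CPM in WT and 17.0, 15.2 and 17.7 CPM in the libraries labelled MUL1(−/−). The ranges overlapped (log2 fold change 0.14, SE 0.10, adjusted p = 0.302), and because the position of the edit in these cells is not given in the sources used here, the level does not check the labels. Of 4 kidney lineage markers, EYA1, PAX2 and LHX1 were expressed and PAX8 was near the floor, at 0.0428 to 0.124 CPM over the 6 libraries, and their summed level was 18.0 to 20.5 CPM in WT and 13.8 to 14.4 CPM in the libraries labelled MUL1(−/−). PAX2 was the only marker of that list past both thresholds and fell (log2 fold change -1.79, SE 0.17, adjusted p = 2.88e-06). The sum of 4 epithelial markers was 417 to 459.8 CPM in WT and 285.4 to 310.6 CPM in the libraries labelled MUL1(−/−), with 0 past both thresholds. The lower sum came mainly from KRT8, a keratin, with means of 295.2 and 155.3 CPM (log2 fold change -0.93, adjusted p = 3.05e-07). The others differed little: KRT18 (0.01, adjusted p = 0.903), EPCAM (0.02, adjusted p = 0.843) and CDH1 (-0.17, adjusted p = 0.333). Of 3 neuronal markers, with sums of 105.0 to 139.6 and 89.9 to 122.4 CPM, NEFM, a neurofilament gene, rose (log2 fold change 1.07, adjusted p = 2.55e-05). NEFM was a small part of the sum, with means of 1.59 and 3.33 CPM. NEFL, the most expressed of the list, was at -0.30 (adjusted p = 0.0825) and INA at -0.02 (adjusted p = 0.927). The summed level of 5 markers of blood, endothelial and stromal cells was 23.0 to 29.8 CPM in WT and 26.9 to 35.6 CPM in the libraries labelled MUL1(−/−), and 4 of the 5 passed upward. PTPRC and PECAM1, which define blood and endothelial cells, stayed at or under 0.379 CPM in all 6 libraries. Of the stromal markers, DCN rose (log2 fold change 1.30, SE 0.15, adjusted p = 1.19e-05), as did COL3A1 (1.38, SE 0.19, adjusted p = 6.97e-05), with MUL1(−/−) library 3 at 1.65 times the mean of libraries 1 and 2 for COL3A1, whereas COL1A1 was lower (-0.38, SE 0.11, adjusted p = 0.0104). The part of these markers in the BMP results was not tested, and fewer cells of a type and less RNA per cell cannot be told apart in bulk RNA.

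All 10 genes passed the filter on low counts. Between the genotypes, 4 of them (BMP2, ID1, ID2 and ID3) were lower in the libraries labelled MUL1(−/−) past both thresholds of the study (adjusted p under 0.05, log2 fold change beyond 1 in size), and 0 were higher, in edgeR's quasi-likelihood test and likewise in DESeq2 and limma-voom. Of all 26060 genes tested, 3.75% were called lower and 4.17% higher in this way, shares from which nothing is read here because the genes were chosen on this contrast. The groups did not overlap in 9 of the 10, with 8 lower and 1 higher in the libraries labelled MUL1(−/−), beside 24.1% and 24.9% of all genes tested. The median log2 fold change of the 10 was -0.64, against -0.0013 over all genes tested. The count of 4 became 5 without MUL1(−/−) library 3, when SMAD6 joined, beside 3.49% of all genes tested called lower. It became 3 in each setting in which ID2, whose log2 fold change lay at the threshold, dropped out, beside 2.38% to 3.96%.

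**Figure D1:**
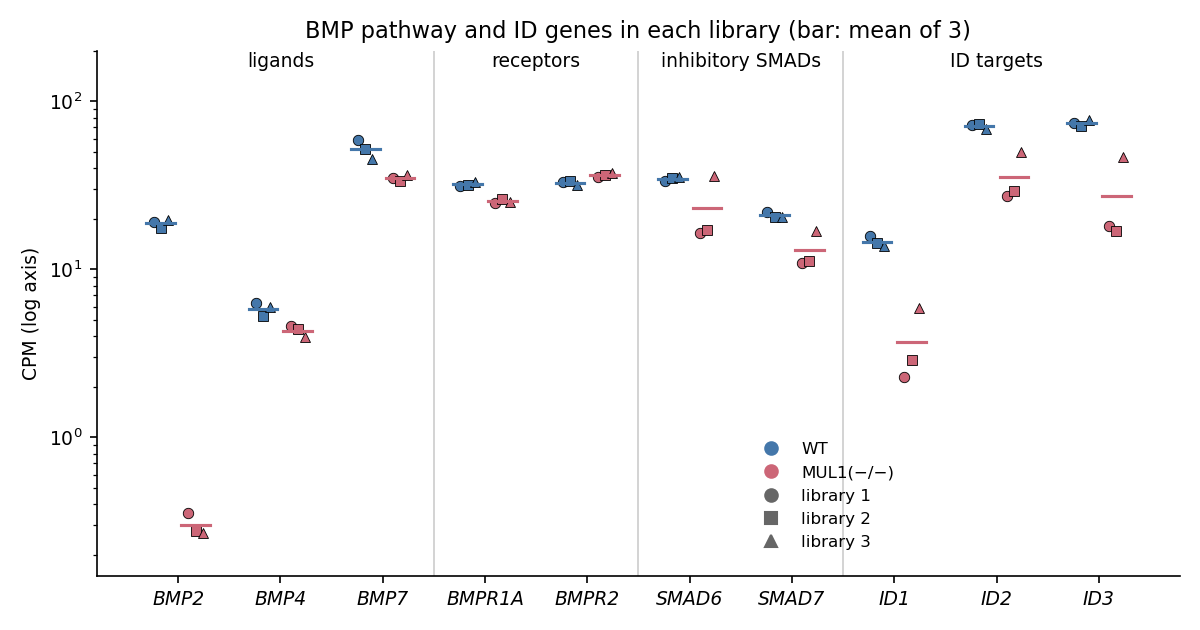
Level of each of the 10 genes in each library, in CPM on a log axis, with the genes grouped by role along the horizontal axis; blue is WT, red is MUL1(−/−), the symbol gives the library number and the bar is the mean of 3. BMP2 sits at 17.5 to 19.6 CPM in WT and at 0.268 to 0.353 CPM in MUL1(−/−), and the triangle of library 3 stands above the other red symbols for SMAD6, SMAD7, ID1, ID2 and ID3.

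Among the ligands, BMP2 (ENSG00000125845; chromosome 20, 6767664 to 6780280) showed by far the widest gap of the 10 genes. BMP2 is a potent inducer of bone and cartilage and signals through BMPR1A. Its level was 19.2, 17.5 and 19.6 CPM in WT libraries 1 to 3 and 0.353, 0.277 and 0.268 CPM in the libraries labelled MUL1(−/−). The WT values lay close together and far above all 3 values of the other genotype, which still rested on 49, 38 and 36 counts and so lay above the floor of 3 counts. With means of 18.8 ± 1.10 and 0.299 ± 0.0467 CPM (SD, n = 3 each), the genotypes were 62.7-fold apart, and the fitted log2 fold change was -5.97 (SE 0.14). The 3 values of the libraries labelled MUL1(−/−) lay together for BMP2, which was not so for the SMADs and ID genes below.

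BMP4 and BMP7 were also lower, but by far smaller steps. BMP4 (ENSG00000125378; chromosome 14, 53949736 to 53958761), a close relative of BMP2, had 6.29, 5.25 and 5.97 CPM in WT and 4.57, 4.38 and 3.95 CPM in the libraries labelled MUL1(−/−). All 3 of the latter were under the lowest WT library (log2 fold change -0.44, SE 0.11). BMP7 (ENSG00000101144; chromosome 20, 57168748 to 57266629), a survival signal of nephron progenitors, had 58.9, 52.0 and 45.1 CPM in WT and 35.0, 33.5 and 36.6 CPM in the libraries labelled MUL1(−/−). WT libraries varied more than the others here, yet the lowest of them stayed above the highest MUL1(−/−) library (log2 fold change -0.57, SE 0.09).

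The receptors differed least. BMPR1A (ENSG00000107779; chromosome 10, 86756601 to 86932838), a type I receptor kinase that phosphorylates the SMADs, had 31.4, 31.8 and 33.0 CPM in WT and 24.7, 26.3 and 25.3 CPM in the libraries labelled MUL1(−/−). Both groups were tight and did not overlap, with a log2 fold change of -0.33 (SE 0.07). BMPR2 (ENSG00000204217; chromosome 2, 202376936 to 202567751), the type II receptor that activates the type I kinase, was the single gene of the 10 with a higher mean in the libraries labelled MUL1(−/−). It had 33.0, 33.4 and 31.8 CPM in WT and 35.3, 36.3 and 37.3 CPM in the other 3, which did not overlap although the log2 fold change was only 0.15 (SE 0.07).

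The inhibitory SMADs divided the MUL1(−/−) libraries among themselves. SMAD6 (ENSG00000137834; chromosome 15, 66702228 to 66782848), which blocks BMP receptors and their SMADs, had 33.5, 35.1 and 35.4 CPM in WT and 16.5, 17.0 and 36.0 CPM in the libraries labelled MUL1(−/−). Libraries 1 and 2 stood at 47.5% and 49.2% of the WT mean and library 3 at 103.9%, above every WT library, so that the groups overlapped. The log2 fold change of SMAD6 was -0.58 (SE 0.22), and -1.05 without library 3. SMAD7 (ENSG00000101665; chromosome 18, 48919853 to 48952052), which blocks both the BMP and the TGF-β receptors, had 21.9, 20.6 and 20.4 CPM in WT and 10.8, 11.2 and 16.9 CPM in the libraries labelled MUL1(−/−). Here library 3 also stood above libraries 1 and 2 but stayed under WT, at 80.5% of the WT mean. The log2 fold change of SMAD7 was -0.69 (SE 0.14), and -0.93 without library 3.

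The ID genes are where the readout of the pathway is usually sought, so their promoters are shown before their values, beside those of SMAD7, in which library 3 also stood apart, and of BMPR2, the gene that was not lower. The windows are RefSeq's, in the build GRCh38.p14, and run from 250 bases before to 50 bases after a gene's start, and 8 of the 10 genes had one, BMP2 and BMP7 being the others. ID1 lies at chr20:31605039-31605338 on the plus strand, ID2 at chr2:8681806-8682105 on the plus strand, ID3 at chr1:23559452-23559751 on the minus strand, the first of 3 windows of SMAD7 at chr18:48950916-48951215 on the minus strand, and BMPR2 at chr2:202376077-202376376 on the plus strand. Each is written 5′ to 3′ along its gene, and capitals mark the SMAD box, whose letters are CAGAC and which reads as GTCTG when it lies on the other strand, and the GC-rich SMAD site, whose letters are GGCGCC.
ID1: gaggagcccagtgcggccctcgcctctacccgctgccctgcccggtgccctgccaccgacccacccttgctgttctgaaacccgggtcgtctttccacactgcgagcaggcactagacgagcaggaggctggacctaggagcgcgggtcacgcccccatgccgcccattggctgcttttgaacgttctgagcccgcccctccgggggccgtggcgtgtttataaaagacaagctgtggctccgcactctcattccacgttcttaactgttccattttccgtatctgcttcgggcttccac
ID2: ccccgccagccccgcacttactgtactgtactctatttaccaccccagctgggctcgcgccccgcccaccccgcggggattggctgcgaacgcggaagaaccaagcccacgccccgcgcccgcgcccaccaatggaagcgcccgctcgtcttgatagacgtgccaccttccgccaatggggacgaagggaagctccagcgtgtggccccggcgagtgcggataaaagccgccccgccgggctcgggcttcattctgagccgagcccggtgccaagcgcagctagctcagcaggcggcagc
ID3: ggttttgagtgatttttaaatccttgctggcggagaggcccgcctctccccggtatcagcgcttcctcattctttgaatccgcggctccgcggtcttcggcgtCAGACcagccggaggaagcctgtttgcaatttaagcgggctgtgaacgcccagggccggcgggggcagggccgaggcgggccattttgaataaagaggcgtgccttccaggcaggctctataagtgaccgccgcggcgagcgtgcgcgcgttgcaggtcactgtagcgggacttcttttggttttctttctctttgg
SMAD7: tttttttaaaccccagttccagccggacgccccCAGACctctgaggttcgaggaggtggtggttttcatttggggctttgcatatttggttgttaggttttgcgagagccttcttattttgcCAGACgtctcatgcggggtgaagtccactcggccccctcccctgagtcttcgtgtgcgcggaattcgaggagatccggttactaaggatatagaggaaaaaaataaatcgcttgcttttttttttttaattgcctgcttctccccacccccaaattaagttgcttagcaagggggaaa
BMPR2: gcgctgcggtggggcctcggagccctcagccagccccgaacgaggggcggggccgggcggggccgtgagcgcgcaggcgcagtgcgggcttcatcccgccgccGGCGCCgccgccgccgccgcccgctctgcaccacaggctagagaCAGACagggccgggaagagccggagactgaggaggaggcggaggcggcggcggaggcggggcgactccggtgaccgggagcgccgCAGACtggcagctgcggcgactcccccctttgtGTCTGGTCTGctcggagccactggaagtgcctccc

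Both strands were searched. The windows of ID1 and ID2 held no match to these letters, that of ID3 held 1 SMAD box at position -147 from the start, and that of SMAD7 held 2, at -217 and -128. The window of BMPR2 held 4 SMAD boxes and 1 GC-rich site. Across all 35116 promoter windows of the same length, 45.3% held a SMAD box and 19.2% the GC-rich site, and a longer GC-rich site, GCCGNCGC, which can overlap GGCGCC and is not marked here, was in 16.8%. This longer site had 6 matches in the window of BMPR2 and 0 in the other 4 windows shown. Of the windows not shown, those of SMAD6 and BMPR1A held 0 matches to any of the 3. BMP4, which was lower, had 3 windows. Its window 1 held 2 matches to GGCGCC and 1 SMAD box, and its windows 2 and 3 held 1 SMAD box each. Windows 2 and 3 of SMAD7 held 1 and 0 SMAD boxes. The window of BMPR2 was 76.7% G and C, against a median of 58.7% over all promoter windows. Its matches are therefore not read as a difference from the lower genes. A match is a run of letters and not a bound site, and no match says only that these letters are not in this window.

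ID1 (ENSG00000125968; chromosome 20, 31605283 to 31606515), known for holding back differentiation in many cell types, had the widest gap of the 3. It had 15.7, 14.4 and 13.7 CPM in WT and 2.27, 2.88 and 5.89 CPM in the libraries labelled MUL1(−/−). Every one of the latter was far under WT, and library 3 was the highest of them, at 40.3% of the WT mean against 15.5% and 19.7%. Averaged, this was 14.6 ± 1.02 and 3.68 ± 1.94 CPM (SD, n = 3 each), with a log2 fold change of -1.99 (SE 0.24), and -2.51 without library 3.

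ID3 (ENSG00000117318; chromosome 1, 23557918 to 23559794) likewise had library 3 as the highest of the MUL1(−/−) libraries. It had 74.2, 71.2 and 77.3 CPM in WT and 18.2, 16.9 and 46.8 CPM in the libraries labelled MUL1(−/−). Libraries 1 and 2 were at 24.5% and 22.8% of the WT mean and library 3 at 63.1%, with no overlap with WT. The log2 fold change of ID3 was -1.44 (SE 0.27), and -2.08 without library 3.

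ID2 (ENSG00000115738; chromosome 2, 8678845 to 8684453) had the smallest gap of the 3. It had 72.4, 73.7 and 68.5 CPM in WT and 27.3, 29.3 and 49.7 CPM in the libraries labelled MUL1(−/−). The groups stood clear of each other, and library 3 was again the highest of its group, at 69.5% of the WT mean against 38.2% and 41.0%. The log2 fold change of ID2 was -1.01 (SE 0.16), and -1.34 without library 3. It fell short of the threshold of 1 when MUL1(−/−) library 1 or 2 was left out, with the library totals in place of TMM, without the filter on low counts and in the most counted bin.

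**Figure D2:**
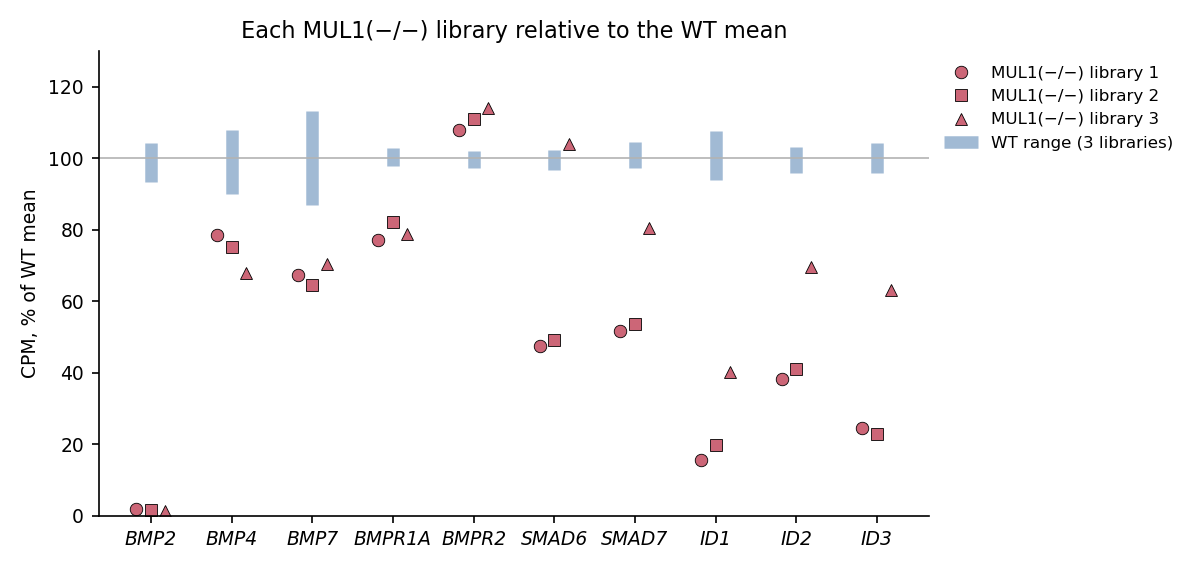
Level of each of the 10 genes in each MUL1(−/−) library as a percentage of the mean of the 3 WT libraries, with the blue bars giving the range of the WT libraries. Library 3 stands above libraries 1 and 2 for SMAD6 (103.9% against 47.5% and 49.2%), SMAD7, ID1, ID2 and ID3, while the 3 libraries lie together for the ligands and receptors.

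MUL1(−/−) library 3 thus differed from libraries 1 and 2 in the inhibitory SMADs and ID genes and not in the ligands and receptors. Its level was at least 1.5 times the mean of libraries 1 and 2 for 5 of the 10 genes. The ratio was 2.67 for ID3, 2.29 for ID1, 2.15 for SMAD6, 1.76 for ID2 and 1.53 for SMAD7, against 0.852 to 1.07 for the ligands and 0.991 and 1.04 for the receptors. Of 16531 genes averaging 1 CPM or more, 0.569% reached this ratio in MUL1(−/−) library 3. Set against their own group, WT library 3 was close to that, at 0.550%, and the others were at 0.0786% to 0.423%. As far in the other direction were 1.95% of genes in MUL1(−/−) library 3, 0.780% in WT library 3 and 0.139% to 0.429% in the others. Of the 64 other pathway genes at that level, 4 reached the ratio, the antagonist NOG (1.54), the receptor-activated SMAD9 (1.52), the target MSX2 (1.54) and CCN2 (1.57), and 2 were as far in the other direction, FST (0.469) and INHBB (0.591). SMAD9, CCN2 and INHBB were named after their values were seen. The labels give nothing that sets library 3 apart from the other libraries of its genotype.

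Levels were set beside each other per kilobase of exon bins. Since a read counts in every bin it touches, this level also rises with the number of bins, which ran from 3 in BMP2 and ID1 to 23 in BMP7, and close ranks, such as SMAD7 (20 bins) over BMP2, are not read as an order of RNA levels. On the scale of CPM per kilobase, the order in WT ran from ID3 (41.3 ± 1.69, SD, n = 3) over ID2 (32.4 ± 1.24) and ID1 (11.9 ± 0.826) to BMP7 (9.60 ± 1.27), SMAD7 (5.67 ± 0.221), BMP2 (5.22 ± 0.305), SMAD6 (4.05 ± 0.123), BMPR1A (2.82 ± 0.0741), BMPR2 (2.75 ± 0.0692) and BMP4 (1.89 ± 0.173). Neighbours in this order did not overlap between their 3 libraries, except BMPR1A and BMPR2. In the libraries labelled MUL1(−/−) the level of BMP2 per kilobase dropped to the end of the order, at 0.0831 ± 0.0130, under BMP4 at 1.40 ± 0.104. ID2 (16.1 ± 5.62) and ID3 (15.2 ± 9.42) were then still the highest but overlapped, and ID1 (2.98 ± 1.57) lay among the receptors and SMADs. Of the 3 ligands, BMP7 (6.46 ± 0.281) was the highest per kilobase in both genotypes. With its 23 bins against 3 in BMP2, its place over BMP2 in WT is not read as an order of RNA levels.

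The direction of the difference was the same in all counted bins of most genes. Among exon bins with at least 20 counts in every library of a genotype, the MUL1(−/−) mean was below the WT mean in 3 of 3 bins of BMP2, 10 of 10 of BMP4, 14 of 14 of BMP7, 18 of 18 of BMPR1A, 11 of 11 of SMAD6, 13 of 13 of SMAD7, 3 of 3 of ID1, 6 of 6 of ID2 and 7 of 7 of ID3. The 3 bins of BMP2 had log2 ratios between -6.13 and -5.69, and the 7 bins of ID3 between -1.49 and -1.33, so that no single exon carried either gap. The size was less even in other genes, from -1.89 to -0.10 in BMPR1A and -1.17 to -0.32 in SMAD6. It ran from -1.35 to -0.36 in SMAD7 and from -1.56 to -0.91 in ID2. In BMPR2, by contrast, 8 of 15 bins were below and 7 above WT. A bin could be counted through 1 genotype alone, as the 3 bins of BMP2 were through WT, so these counts are partly set by the filter. Of the 21 bins of BMP4, 10 were counted. Those of its distal first exon, described below and higher in the libraries labelled MUL1(−/−), were not among them.

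The gain of BMPR2 sat in its last bin, which was singled out after its value was seen. This bin, at chromosome 2, 202559696 to 202567751 of GRCh38, lies in 3 of 4 annotated transcripts and holds coding sequence in 2 of them. It took 39.5%, 38.7% and 42.9% of the BMPR2 counts in WT and 44.2%, 48.8% and 49.2% in the libraries labelled MUL1(−/−), with no overlap. Its log2 ratio was 0.38 and that of all other BMPR2 bins together was -0.03.

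Shifts within the gene, of a smaller share of its counts, were also seen in BMP4 and BMPR1A. A distal first exon of BMP4, at chromosome 14, 53956550 to 53956811, which begins 3 of 9 annotated transcripts and holds no coding sequence, had 14, 7 and 12 counts in WT and 23, 23 and 25 in the libraries labelled MUL1(−/−). This exon was higher in the libraries labelled MUL1(−/−) while the rest of BMP4 was lower (log2 ratio 1.16 against -0.48), and it took 1.30% ± 0.385 and 4.05% ± 0.583 of the counts of BMP4 (SD, n = 3 each). In BMPR1A the bins downstream of its long 3′ bin, at chromosome 10, 86929297 to 86932838, took 3.37% ± 0.505 of the counts in WT and 1.78% ± 0.204 in the libraries labelled MUL1(−/−) (SD, n = 3 each), a log2 ratio of -1.25 against -0.31 in the rest of the gene. These bins were singled out after their values were seen.

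Neighbours on the chromosome moved with some of the genes and not with others. For the 10 tested genes on either side of BMP2 the median log2 fold change was 0.15, from -0.52 to 1.05, with 4 of 20 negative, so the gap at BMP2 was not shared by the genes around it. Around ID1 the median was -0.23, and ID1 lay below all 20 neighbours, whose lowest was at -1.69. Around ID3, all 20 neighbours were negative, from -1.36 to -0.15 with a median of -0.66, and 4 of them were called lower, where 50.1% of all genes tested were negative. The span of these neighbours was chromosome 1 from 23191895 to 23980927, and ID3, at -1.44, was 0.79 under their median. RPL11, the ribosomal protein gene next to ID3, was at -0.98.

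For the rest, the gap to the neighbours was smaller. ID2 stood 0.72 under the median of its neighbours (-0.29), and its neighbour ID2-AS1, an antisense RNA, was at -1.32 in counts that do not separate the strands. SMAD6 was 0.71 and SMAD7 0.52 under theirs. BMP7 (neighbours -0.34) and BMPR1A (neighbours -0.36) lay in stretches where 15 and 18 of the 20 neighbours were negative, and BMPR1A was 0.03 above the median there, while BMPR2 was 0.28 above its neighbours (-0.13) and BMP4 0.37 under its own.

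The genes whose level across the 6 libraries was most like that of BMP2 were LSM14B, PPP1R14A and EEF1A2, each with a Pearson r of 0.999 in log2 CPM. Over 6 libraries that fall into 2 genotypes such a value describes a difference with little spread within a genotype and not a graded relation, and 256 of 16530 genes had an r over 0.99. PPP1R14A, an inhibitor of myosin phosphatase, came nearest in size, with 16.9 ± 0.678 CPM in WT and 0.229 ± 0.0497 CPM in the libraries labelled MUL1(−/−) (SD, n = 3 each; log2 fold change -6.20). EEF1A2, a translation elongation factor, had a log2 fold change of -2.66, and LSM14B, an RNA-binding protein, one of -0.85.

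Beyond the 10, the wider pathway was taken from 8 lists of 89 genes, of which 83 passed the filter and 6 (BMP10, BMP15, GDF2, CER1, VWC2 and HJV) did not. Past both thresholds, 2 of the 83 rose (TLL1 and ID4) and 7 fell (BMP3, TLL2, NOG, FST, MSX2, RUNX2 and ATOH8) in the libraries labelled MUL1(−/−), which is 10.8% beside 7.91% of all genes tested. By the adjusted p alone, 17 were higher and 19 lower, beside 19.3% and 18.5% of all genes tested. For the counts at an unadjusted p under 0.05 below, the share of all genes tested was not taken, so nothing is read from them. DESeq2 and limma-voom called the same 2 and 7 genes, so every 0 given for a list below is also theirs. The median log2 fold change of the 83 was 0.06. Bins shared with another gene held most counts of GDF7 (97.3%), KCP (92.1%), NBL1 (80.8%) and RGMB (62.9%), which are named here for this share. These 4 were among the genes lower by the adjusted p alone, so that count rests partly on reads of overlapping genes. In the genes past both thresholds the share was 0%. All p-values are from edgeR's quasi-likelihood test with Benjamini-Hochberg adjustment over all genes tested.

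Among 8 tested ligands other than the 3 above, 1 fell and 0 rose, with a median of -0.06. By the adjusted p alone, and also at an unadjusted p under 0.05, 2 were higher and 3 lower. The ligand that fell was BMP3, an atypical BMP that opposes the others. It had 3.77, 3.82 and 2.77 CPM in WT and 1.48, 2.28 and 1.42 CPM in the libraries labelled MUL1(−/−). The log2 fold change of -1.003 (SE 0.19, adjusted p = 0.000682) lay at the threshold, and the call was lost without WT library 1 or 2, without MUL1(−/−) library 1 or 3 (-0.88 without library 3), without the filter on low counts and with library totals. BMP6, the ligand with the highest mean CPM among those not called, had 17.3 ± 3.41 and 11.3 ± 2.49 CPM (SD, n = 3 each; log2 fold change -0.62, adjusted p = 0.00655).

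Of the 6 convertases and metalloproteases listed for ligand processing, 1 rose and 1 fell, with a median of 0.57. By the adjusted p alone, 4 were higher and 1 lower. TLL1 and TLL2, metalloproteases of the tolloid family, some members of which cleave chordin and so free BMPs, went opposite ways. TLL1 had 0, 0.0324 and 0.00724 CPM in WT, from 0, 5 and 1 counts, and 0.771, 0.735 and 0.887 CPM in the libraries labelled MUL1(−/−), from 107, 101 and 119 counts (log2 fold change 5.76, SE 0.44, adjusted p = 3.26e-07). WT was thus close to the floor of 3 counts, and the size of the fold depends on the prior count of the fit. TLL2 fell from 4.85 ± 0.454 to 2.22 ± 0.171 CPM (SD, n = 3 each; log2 fold change -1.13, SE 0.12, adjusted p = 7.93e-06). FURIN, the convertase that matures BMP ligands, had 62.7 ± 2.22 and 92.3 ± 4.56 CPM, a log2 fold change of 0.56 under the threshold of 1 (adjusted p = 2.22e-05).

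Among 18 tested genes listed as extracellular or membrane antagonists, a label of the list that need not be the only role of each, 0 rose and 2 fell, with a median of -0.13. By the adjusted p alone, 1 was higher and 5 lower, and at an unadjusted p under 0.05, 3 were higher and 6 lower. NOG, which encodes noggin, a trap for BMP2, BMP4 and BMP7, had 9.54, 8.08 and 5.69 CPM in WT and 1.69, 1.78 and 2.67 CPM in the libraries labelled MUL1(−/−). All 3 of the latter were under WT (log2 fold change -1.93, SE 0.20, adjusted p = 4.70e-06). FST, which encodes follistatin, an antagonist of activins and some BMPs, had 5.40, 4.43 and 4.88 CPM in WT and 1.45, 2.24 and 0.865 CPM in the libraries labelled MUL1(−/−). Library 3 was here the lowest of its group, unlike for NOG (log2 fold change -1.69, SE 0.23, adjusted p = 6.74e-05). FSTL1, a follistatin-like glycoprotein with the highest mean CPM among those not called, had 193.0 ± 3.61 and 159.7 ± 35.4 CPM (SD, n = 3 each; log2 fold change -0.27, adjusted p = 0.0727). Library 3 was at 1.44 times the mean of libraries 1 and 2, and FSTL1 was at -0.47 without it (adjusted p = 6.68e-05) and at -0.16 without MUL1(−/−) library 1 (adjusted p = 0.316).

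No other receptor or co-receptor (9 tested, median 0.12) and no SMAD or SMAD regulator (12 tested, median -0.05) passed both thresholds. By the adjusted p alone, 2 receptors were higher and 2 lower, and 2 SMADs or regulators were higher and 1 lower. At an unadjusted p under 0.05 the counts were 2 and 2 for the receptors and 2 and 3 for the SMADs and regulators. NEO1, which encodes neogenin, a receptor for the repulsive guidance molecules that act as BMP co-receptors, had 88.1 ± 1.30 and 95.1 ± 5.47 CPM (SD, n = 3 each; log2 fold change 0.11, adjusted p = 0.211). SKI, a corepressor that binds SMADs, had 115.9 ± 12.3 and 69.5 ± 4.64 CPM, a log2 fold change of -0.74 (adjusted p = 1.24e-05) under the threshold of 1.

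Other targets of BMP signalling were the list with the lowest median, -0.67 over 9 tested genes, of which 3 fell and 1 rose. By the adjusted p alone, 6 were lower and 1 higher. MSX2, a homeobox gene of bone, teeth and limb, had 20.7, 20.1 and 24.9 CPM in WT and 7.43, 8.41 and 12.2 CPM in the libraries labelled MUL1(−/−). Library 3 was again the highest of its group and still under WT (log2 fold change -1.23, SE 0.15, adjusted p = 2.21e-05). RUNX2, the master factor of osteoblasts, fell from 5.77 ± 0.517 to 2.77 ± 0.383 CPM (SD, n = 3 each; log2 fold change -1.06, SE 0.13, adjusted p = 2.05e-05), a call lost without MUL1(−/−) library 3 (-0.96) and with library totals (-0.99). ATOH8, a helix-loop-helix gene, fell from 1.30 ± 0.230 to 0.449 ± 0.108 CPM (log2 fold change -1.53, SE 0.21, adjusted p = 6.30e-05), and GATA2, a blood and urogenital factor, had a log2 fold change of -0.51 (adjusted p = 0.00362).

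ID4, the remaining member of the ID family, went the other way from ID1, ID2 and ID3. It had 47.8, 44.2 and 42.6 CPM in WT and 123.6, 130.6 and 155.1 CPM in the libraries labelled MUL1(−/−). The groups were far apart, with library 3 the highest but only 1.22 times libraries 1 and 2 (log2 fold change 1.60, SE 0.09, adjusted p = 1.11e-08). The call held in all 15 alternatives tried, with log2 fold changes between 1.48 and 1.67. Of the 3 E proteins, the partners that ID proteins sequester, 0 passed both thresholds (median 0.14). By the adjusted p alone, 1 was higher and 0 lower, and at an unadjusted p under 0.05, 1 was higher and 1 lower. TCF3, the E protein with the highest mean CPM, had 265.4 ± 13.0 and 237.2 ± 6.55 CPM (SD, n = 3 each; log2 fold change -0.16, adjusted p = 0.0570).

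The sister branch of TGF-β and activin had 0 of 18 genes past both thresholds, with a median of 0.15, and by the adjusted p alone, as at an unadjusted p under 0.05, 4 were higher and 1 lower. TGFB1, with the highest mean CPM of the branch, had 79.4 ± 4.15 and 76.3 ± 2.53 CPM (SD, n = 3 each; log2 fold change -0.06, adjusted p = 0.543). Bins that it shares with another gene held 55.1% of its counts, and the sign of its difference turned in the most counted bin (0.20) and with library totals (0.01), while in bins that no other gene touches it was -0.39 (adjusted p = 0.00432), so no direction is given.

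**Figure D3:**
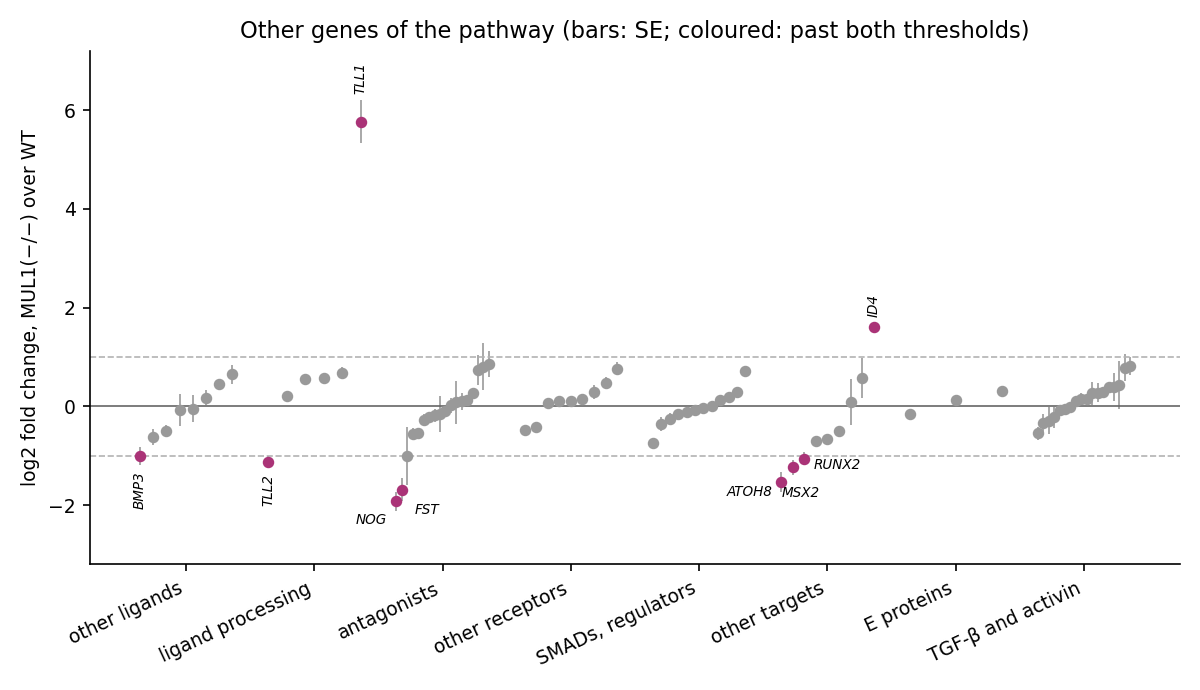
Log2 fold change, MUL1(−/−) over WT, of the 83 tested genes of the 8 lists, sorted within each list, with bars for the SE and coloured points for the 9 genes past both thresholds (an adjusted p under 0.05 and beyond the dashed lines at 1 and -1). TLL1 at 5.76 and ID4 at 1.60 are the genes above, and 3 of the 7 below belong to the other targets.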

How the data were processed

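RNA-seq of 6 HEK293 libraries was re-analysed. The files deposited by the authors hold raw counts of reads in exon bins, without normalization, and the submitters' processing notes name GRCh38, Trimmomatic 0.36 (a read trimmer) and STAR 2.5.2b (an aligner). The counting program is not given in the sources used here. Counts were summed per gene over 597973 bins. A read is counted in every bin that it touches, so sums exceed reads. A bin of a joined identifier (2031 of 54848) was given to each gene with a same-strand GENCODE 29 exon on it, which can count it more than once. The counts do not use strand: in 11 pairs of identical bins on opposite strands the median ratio was 1.0. Floors of 3 counts cover counting error only.

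Genes were tested with edgeR 4.0.16 in R 4.3.3 (TMM, filterByExpr, quasi-likelihood test, Benjamini-Hochberg adjustment) on all 6 libraries. DESeq2 1.42.0, limma-voom (limma 3.58.1), other scalings and filters, other bin choices and each library left out were alternatives. On simulated data for MUL1(−/−) against WT (26060 genes, 200 changed by a log2 fold change of 2), edgeR recovered 182 with 3 false calls. No smaller change was simulated, so this does not cover calls near the threshold of 1, such as ID2, BMP3 and RUNX2. Replicates differed by 3.32 to 11.1 times their sampling noise (chi-square over its degrees of freedom). The pairs with library 3 differed most in both genotypes. Gene names came from the name tables given and GENCODE 29, and promoters from RefSeq.

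The 10 genes, the lists and the tests were chosen with earlier results of these data known. Named genes are the 10, MUL1, each called gene and the uncalled gene of highest mean CPM in each list, and the 3 closest to BMP2 by Pearson r. Exceptions are said in place. A further kidney lineage marker is not reported here.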

Additional observations from a re-analysis of the deposited data

How the results depend on the processing

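The direction of all 10 genes was the same in the 15 refitted alternatives. In these, 3 to 5 of the 10 were called lower, beside 1.94% to 4.07% of all genes tested, from which again nothing is read. Leaving out 1 library in turn gave log2 fold changes of -1.05 to -0.38 for SMAD6, -2.51 to -1.74 for ID1 and -2.08 to -1.19 for ID3, the lowest each time without MUL1(−/−) library 3. Less the median of the neighbours, BMP7 was at -0.23, BMPR1A at 0.031, BMPR2 at 0.28 and ID3 at -0.79. With library totals BMPR1A was at -0.27 and BMPR2 at 0.21, and in the most counted bin at -0.51 and 0.39. TGFB1 reversed to 0.0056 with library totals and 0.20 in the most counted bin (adjusted p = 0.0407), and was at -0.39 in bins untouched by other genes (adjusted p = 0.00432). Over all genes, 348 were called higher and 452 lower with a filter of at least 1 CPM in 3 samples, against 1086 and 976. That filter left 16693 genes in place of 26060. Of the 89 pathway genes, 1 was then higher (ID4), and TLL1, at 0.887 CPM or less in every library, did not pass the filter. In the most counted bin 5 were higher (with ACVRL1, BMPER and GDF5), and the cause of that change was not tested. By the adjusted p alone, which sets no limit on the fold change, 17 were higher and 19 lower.

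The labels number the samples 1 to 3 in each genotype. Deviations from the group means correlated at -0.11, 0.17 and 0.10 between same-numbered samples, so the numbers were not taken to pair them. With the replicate number as a block, the same 2 pathway genes were higher and the same 7 lower. In that fit 4 of the 10 genes were lower, beside 3.63% of all genes tested.

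With 3 samples a genotype and 1 count at up to 0.00745 CPM, depth limits values near the floor, such as TLL1 in WT, while the spread of the MUL1(−/−) samples limits the ID genes and the inhibitory SMADs.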
